A study of Drosophila melanogaster with 3 samples.

Results

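Peaks of the Drosophila melanogaster corepressor protein CoRest in densely bound stretches of the genome are described here. They were chosen by their own density: the arms of chromosomes 2 and 3 (2L, 2R, 3L, 3R) and chromosomes X and 4 were divided from position 1 of the dm6 assembly into 50-kb windows, and every peak of the authors' reproducibility-thresholded list whose summit lay in a window with 10 or more such summits was taken. This gave 1624 of 8721 peaks (18.6%) in 142 of 2680 windows, and the other 7097 peaks served for comparison. The data came from 3 biological replicates of 1 group, with no second condition: whole embryos of mixed sex, 0 to 24 h old, from a transgenic line that carries CoRest with GFP at its C-terminus. Chromatin was sonicated to 200 to 800 bp, precipitated with an antibody against GFP, and sequenced (ChIP-seq), and 1 control file was used for all lists. Because whole embryos of all these ages were pooled, a densely bound window is a sum over cell types and stages, and peaks of 1 window need not be bound in the same cell. Sequencing depth is unknown because only peak lists were used, and the binomial intervals given allow for counting error alone.

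CoRest is the scaffold of a corepressor. It joins Su(var)3-3, the fly homologue of the histone demethylase LSD1, to a histone deacetylase, and the complex removes active marks from nucleosomes at the genes to which sequence-specific repressors bring it. In fly embryos developmental control genes often carry many separate enhancers spread over long introns and flanking sequence, while housekeeping genes often lie close together.

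Summit sequences of members were compared first because the dense windows held both kinds of locus. Each sequence runs 5′ to 3′ on the plus strand of the RefSeq Release 6 genome (dm6), 100 bases on either side of the summit. Capitals mark matches on either strand to TATCGATA (the site of the promoter factor DREF), CGATA (the core of the insulator protein BEAF-32, which also lies within the DREF site), GGTCACAC (the core of the promoter factor M1BP) and GAGAG (the core of GAGA factor). The first group of sequences is the strongest member in each of 3 promoter-led windows on 3R, of 15, 13 and 12 summits, and these members lay in introns of bon (chr3R:20594402-20594602) and of Leash (chr3R:10886850-10887050) and 132 bp upstream of CG18549 (chr3R:12449064-12449264).
bon: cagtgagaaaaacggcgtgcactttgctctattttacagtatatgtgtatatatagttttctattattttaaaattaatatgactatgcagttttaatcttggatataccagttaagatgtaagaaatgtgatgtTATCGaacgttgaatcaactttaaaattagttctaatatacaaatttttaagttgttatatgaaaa
Leash: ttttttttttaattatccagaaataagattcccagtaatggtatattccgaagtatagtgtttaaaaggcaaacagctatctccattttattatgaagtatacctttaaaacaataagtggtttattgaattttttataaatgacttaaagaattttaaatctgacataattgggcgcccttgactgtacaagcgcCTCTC
CG18549: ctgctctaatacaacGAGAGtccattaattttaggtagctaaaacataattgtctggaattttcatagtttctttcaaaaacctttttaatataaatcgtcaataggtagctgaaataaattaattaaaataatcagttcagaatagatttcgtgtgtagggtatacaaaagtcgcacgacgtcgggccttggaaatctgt
The second group is the strongest member in each of 3 distal-led windows, of 17, 14 and 13 summits, and these members lay between genes near CG7560 (chr3L:11418446-11418646), in an intron of eff (chr3R:14738540-14738740) and in an intron of ush upstream of cbt (chr2L:480963-481163).
CG7560: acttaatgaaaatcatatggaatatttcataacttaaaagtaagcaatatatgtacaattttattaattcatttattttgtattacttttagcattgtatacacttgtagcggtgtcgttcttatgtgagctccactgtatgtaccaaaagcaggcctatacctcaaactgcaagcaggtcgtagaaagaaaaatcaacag
eff: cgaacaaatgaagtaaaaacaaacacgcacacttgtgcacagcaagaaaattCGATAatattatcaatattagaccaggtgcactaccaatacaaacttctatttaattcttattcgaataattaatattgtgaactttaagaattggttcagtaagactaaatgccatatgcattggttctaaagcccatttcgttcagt
cbt: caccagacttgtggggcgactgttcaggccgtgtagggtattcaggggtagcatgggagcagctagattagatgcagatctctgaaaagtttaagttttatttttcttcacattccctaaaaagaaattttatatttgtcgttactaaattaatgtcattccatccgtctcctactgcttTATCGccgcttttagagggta
The last pair was picked after the motif shares were known, as the strongest member of a promoter-led window with a DREF site, 124 bp upstream of Shc (chr3L:9426786-9426986), and the strongest with an M1BP core, between slp1 and slp2 (chr2L:3832433-3832633).
Shc: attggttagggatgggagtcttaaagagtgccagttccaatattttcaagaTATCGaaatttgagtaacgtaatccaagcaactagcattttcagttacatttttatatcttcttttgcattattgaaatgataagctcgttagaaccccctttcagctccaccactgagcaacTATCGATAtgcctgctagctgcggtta
slp2: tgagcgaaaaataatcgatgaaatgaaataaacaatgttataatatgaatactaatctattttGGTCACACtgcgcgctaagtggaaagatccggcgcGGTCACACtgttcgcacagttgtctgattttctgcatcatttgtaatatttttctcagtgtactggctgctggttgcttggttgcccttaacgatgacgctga
None of the first 6 of these sequences held a DREF or M1BP match, 3 held CGATA and 2 held GAGAG. Over 201-bp stretches that tile the 6 arms, TATCGATA was in 0.564%, GGTCACAC in 0.430%, CGATA in 21.4% and GAGAG in 21.5%.

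Most windows held few peaks and a small number held many. A window held 3.25 summits on average, 693 windows held none, and the fullest held 20. The variance of the count was 3.20 times its mean. The threshold cut a continuous range: 56 windows held 9 summits and 58 held 10, and promoter peaks made up 48.6% of the peaks in the first and 49.0% in the second. The dense windows were 5.3% of all windows, a share that the rule itself sets.

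**Figure D1:**
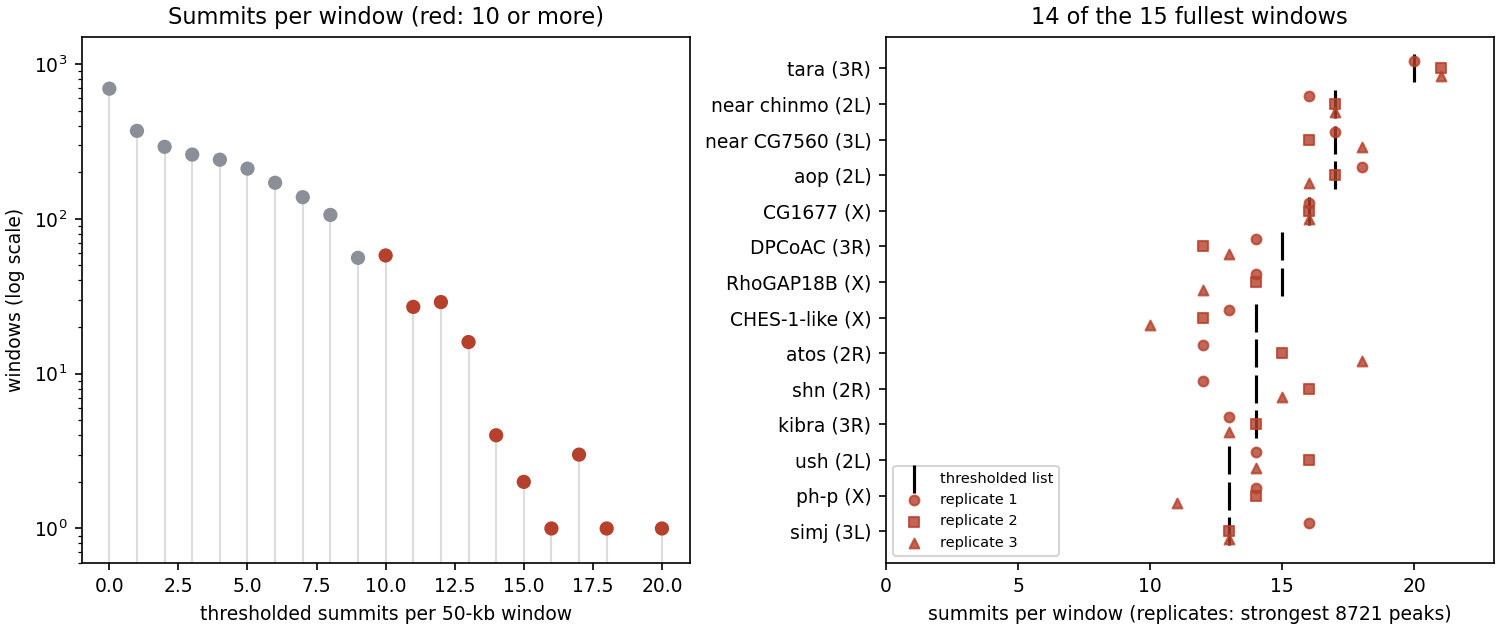
Left, the number of 50-kb windows (log scale) by their number of thresholded summits, with windows of 10 or more in red. Right, 14 of the 15 fullest windows by leading or nearest gene, with the thresholded count as a black bar and the count among the strongest 8721 peaks of each replicate as a symbol. Counts of single replicates lie within a few summits of the thresholded count, and the tara window is the fullest in all 3.

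The density of these windows was seen in the separate replicates. Of the strongest 8721 peaks of each replicate, 1597, 1577 and 1575 fell in the 142 windows (18.2% ± 0.139, SD, n = 3). Windows with 10 or more of these peaks made up 5.34% of all windows in replicate 1, 5.15% in replicate 2 and 4.78% in replicate 3. Of the 142 dense windows, 109, 100 and 107 held 10 or more again in these replicates (74.2% ± 3.33, SD, n = 3). In 70 windows all 3 replicates reached 10, and in 5 none did. The thresholded list was made from the same replicates, so these counts describe agreement and do not test it. Of the 1624 members, 1112 had a summit within 100 bp among the strongest peaks of all 3 replicates (68.5%, 95% exact binomial interval 66.2 to 70.7), against 64.6% of the other peaks (63.5 to 65.8).

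Dense windows lay on every arm but the small chromosome 4, whose fullest window held 5 summits. 3L had the most, with 39 of its 563 windows (6.93%) and 24.0% of its peaks. The share was 5.52% on 2L (26 windows), 5.31% on X (25), 4.83% on 3R (31) and 4.15% on 2R (21). On 2R 15.9% of the peaks were members. Most dense windows stood alone: 104 had no dense neighbour, and the rest formed 11 runs of 2 windows, 4 runs of 3 and 1 run of 4.

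Several of the fullest windows lay at developmental regulators. The window with most peaks, chr3R:16200001-16250000, held 20 thresholded summits and 20, 21 and 21 in replicates 1, 2 and 3. It spans the first part of tara, a SERTA-domain protein that acts with Trithorax group proteins, and the sequence upstream of it. Only 7 of the 20 summits lay inside tara and 1 was a promoter peak, at mtSSB, so most were scattered over the flank, where several lay beside non-coding RNA genes. Its strongest member, in a tara intron 5847 bp upstream of the nearest start site, had rank 83 in the pooled list and ranks 106, 57 and 91 in the replicates. Of the 20, 3 summits belonged to 1 deposited interval of 1056 bp upstream of tara.

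The window at chr2L:1600001-1650000 held 17 summits (replicates 16, 17 and 17), with none in a protein-coding gene body. Its strongest member lay 12470 bp upstream of chinmo, a BTB zinc finger protein that marks early-born neurons, at pooled rank 22 and replicate ranks 55, 10 and 9. The window at chr3L:11400001-11450000 held 17 (17, 16 and 18) around CG7560, CG6149 and CG7557. The same number lay at aop (chr2L:2150001-2200000; 18, 17 and 16), an ETS-domain repressor of receptor tyrosine kinase signalling, of which 8 were inside the gene.

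On the X, chrX:7300001-7350000 held 16 summits, and each replicate held 16. All of them lay inside CG1677, a 124709-bp gene that overlaps 7 others here, among them brk, the repressor of BMP target genes. The member nearest to brk, 737 bp upstream of its start, had pooled rank 193 and ranks 129, 400 and 280 in the replicates. A second strong member lay 281 bp upstream of CBP, at pooled rank 168 and replicate ranks 140, 199 and 231. The window at chr3R:20550001-20600000 was of another kind: its 15 summits (replicates 14, 12 and 13) were spread over 17 gene starts, including Stat92E, the transcription factor of JAK/STAT signalling, and bon, a TIF1-type chromatin cofactor, and 8 were promoter peaks. RhoGAP18B, a GTPase-activating protein, held 10 of 15 summits at chrX:19150001-19200000 (replicates 14, 14 and 12).

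Windows with 14 summits were led by CHES-1-like, a forkhead factor on the X, by atos beside the chromatin remodeller tou on 2R, by shn on 2R, and by kibra, a Hippo pathway regulator, with eff on 3R. Of the shn window's 14 summits 13 lay inside shn, a zinc finger repressor that acts with Smad proteins, and the replicates held 12, 16 and 15. At atos the replicates were further apart, with 12, 15 and 18. Of the windows with 13 summits, the first by the ordering used were led by ush (replicates 14, 16 and 14), ph-p (14, 14 and 11) and simj (16, 13 and 13). ush is the FOG-type cofactor of GATA factors, ph-p is a subunit of Polycomb repressive complex 1, and simj is the p66 subunit of a Mi-2 deacetylase complex.

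**Figure D2:**
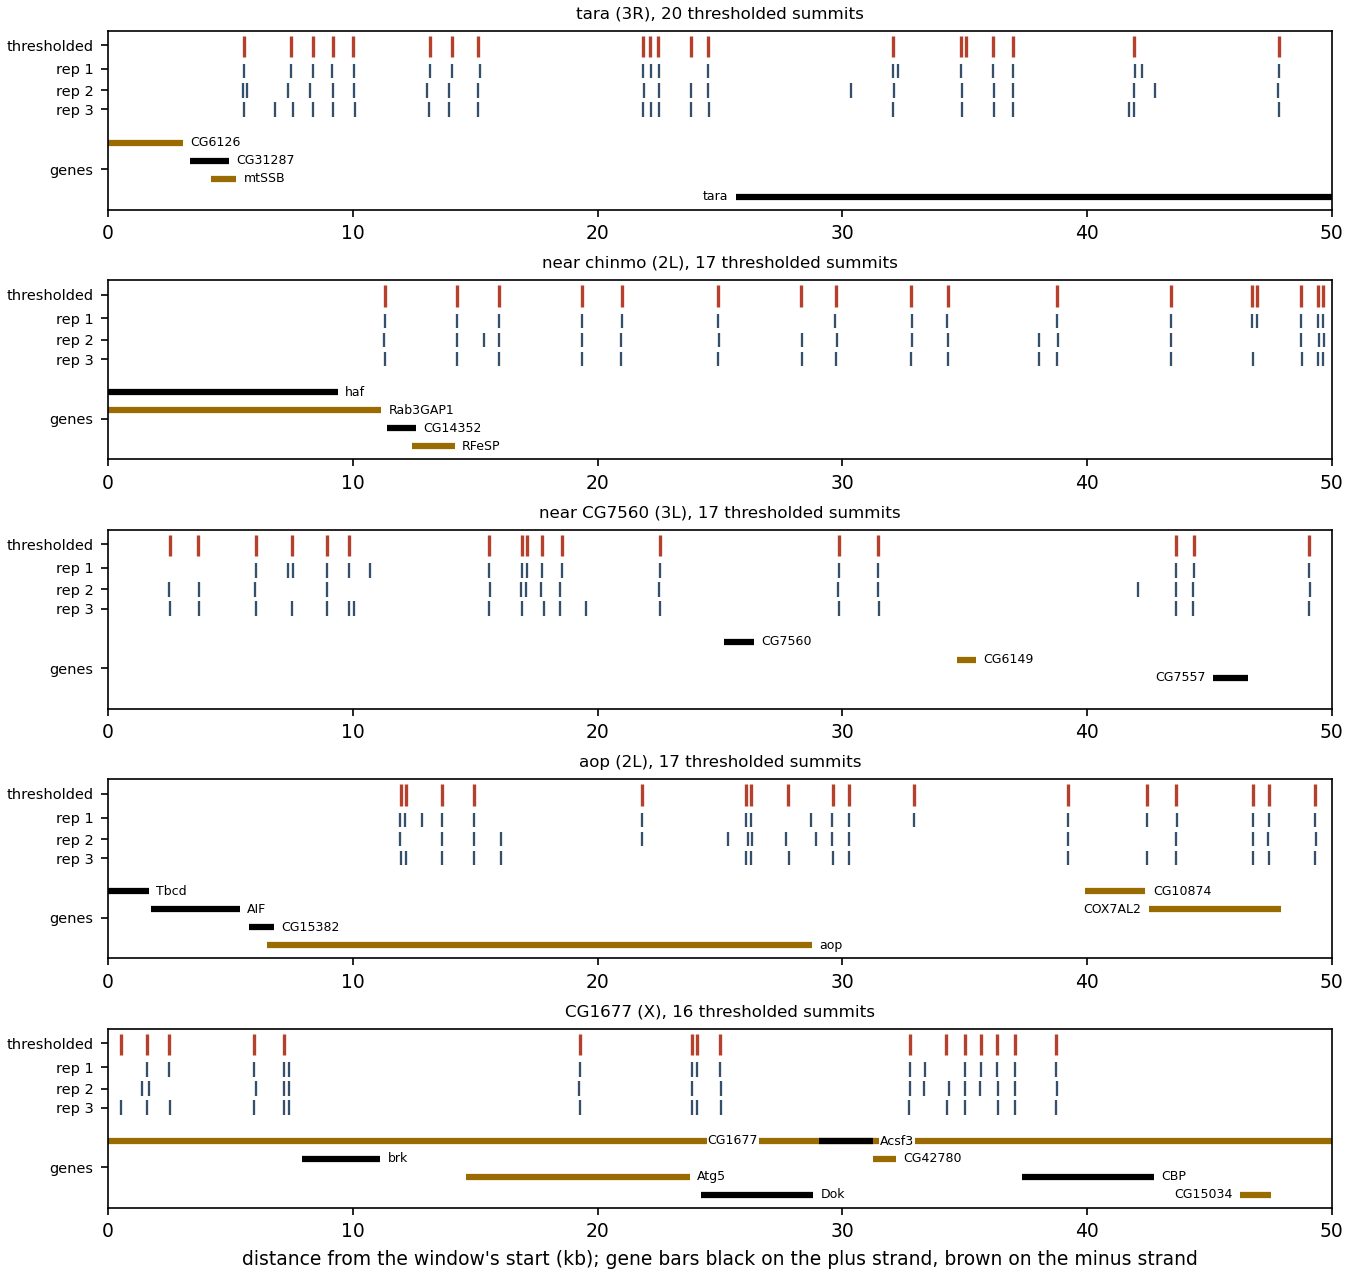
Maps of 5 of the 6 fullest windows, with distance from the window's start in kb. Red bars are thresholded summits, blue bars the summits of the strongest 8721 peaks of each replicate, and horizontal bars protein-coding genes, black on the plus and brown on the minus strand. Summits recur at the same places in the replicates, and the windows near chinmo and CG7560 hold theirs outside protein-coding genes.

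The longest unbroken stretch of dense windows ran over 4 windows, chr3L:11250001-11450000. It held 54 thresholded peaks and 52, 62 and 62 of the strongest peaks of replicates 1, 2 and 3. Only 10 protein-coding genes start in it, among them scyl, an inhibitor of TOR signalling. Of the 54 peaks 37 lay over 2 kb from any start site and 1 was a promoter peak, 446 bp upstream of Dyro, which was also its strongest (pooled rank 332, replicate ranks 354, 455 and 264).

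The next runs had 3 windows each. At chr3L:700001-850000, with 36 peaks (replicates 30, 33 and 32), the genes include emc, the HLH inhibitor of proneural proteins, and 20 peaks were distal. The middle window of this run held 12 summits, 11 of them distal, and the start of a single protein-coding gene, hng3. The run at chr2L:3750001-3900000 held 34 peaks (33, 26 and 30) around the segmentation genes slp1 and slp2, the odd-skipped family gene bowl and the formin capu. It had 13 promoter peaks and 6 distal ones.

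Single genes held up to 17 member summits. ush had 17 member summits along its 64341 bp, with 16, 17 and 20 of the strongest peaks of the replicates. CG1677 had 16, the nuclear receptor ftz-f1 13, the corepressor sbb 13, shn 13, the SP-RING protein tna 12 and the ETS activator pnt 11. All 13 thresholded summits of ftz-f1 were members (replicates 10, 13 and 13), and 13 of 18 in shn.

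Several of the 12 members with the highest signal lay at transcription factor and Polycomb genes. The strongest, inside ush and 1375 bp upstream of the zinc finger gene cbt, had pooled rank 5 and replicate ranks 4, 2 and 4. An intron of Trl, the gene of GAGA factor, followed at pooled rank 9 (12, 9 and 10), then the CG18549 promoter at rank 11 (11, 14 and 17). ph-p had 2 members in this range, at pooled ranks 13 (9, 11 and 19) and 47 (41, 45 and 52). The peak upstream of chinmo, at rank 22, varied most among the first 5. The rest of the 12 strongest lay at CG13390 (25), Psc, another Polycomb repressive complex 1 gene (32), the kinase gene Tlk (42), SLIRP2 (48), simj (49) and CG12769 (52). All 12 had a peak summit within 100 bp in the deposited list of every replicate.

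Members lay less often at promoters than the other peaks did. Promoter peaks are those with a start site of a protein-coding gene at most 500 bp from the summit, distal peaks lie over 2 kb from the start of any gene, non-coding ones included, and the rest lie between. In replicates 1, 2 and 3, 41.4%, 42.1% and 38.1% of the strongest peaks in dense windows were promoter peaks, against 51.2%, 51.3% and 47.1% of those elsewhere, so the groups did not overlap. The difference was -9.35 percentage points ± 0.423 (SD, n = 3; exact sign-flip permutation p = 0.25, two-sided, the smallest that 3 replicates allow, which holds for every p given below). Each replicate was also left out in turn, keeping only peaks found in both others, which left 37 to 46 dense windows. The difference was then -16.9 points without replicate 1, -15.7 points without replicate 2 and -10.4 points without replicate 3. Over other window rules and lists it ran from -16.8 points at 12 or more summits to -2.99 points with the strongest 50% of the list. Peaks between made up 28.6% ± 1.01 of members and 21.4% ± 1.03 of the others (SD, n = 3; exact p = 0.25). Distal peaks differed less, 30.8% ± 1.31 against 28.7% ± 1.56 (SD, n = 3; exact p = 0.25), and this sign turned when distal meant over 5 kb from a start site (-2.96 percentage points). Without replicate 3 the distal difference was 0.0545 points, and without replicate 1 it was 5.003 points. In 2 other settings it also turned: with 25-kb windows it was -1.03 points and with the strongest 50% of the list -1.47 points. In the thresholded list 622 members lay inside a gene but outside promoters, UTRs and coding sequence (38.3%, against 34.1% of the other peaks). This class holds introns and also non-coding genes, their exons included. Between genes lay 325 members (20.01%, against 15.39% of the others). In 3′ UTRs lay 13 of 1624 members and 57 of 7097 other peaks, and in 5′ UTRs 6 and 31. Coding sequence held 0 members and 13 of the other peaks (0.183%), counts too small to compare.

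A dense window has more gene starts to lie near, with a median of 8 protein-coding genes starting in it against 4 in the other windows. Grouped by that number, a grouping made after the data were seen, members still had the lower promoter share. Where 1 to 5 genes start, it was 18.7% ± 1.49 against 29.1% ± 1.84. With 6 to 10 it was 38.7% ± 1.73 against 57.5% ± 2.57, and with 11 or more 66.9% ± 2.08 against 74.3% ± 1.91 (SD, n = 3 each; exact p = 0.25 each). Promoter position and the count per window come from the same summits, and a window has only so many start sites, so this difference is not independent of the rule.

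Away from promoters, members ranked higher by signal than the other peaks. Ranks are given as percentiles within the strongest 8721 peaks of a replicate, low being strong, because the scale of the deposited signal differs between lists. The median distal member stood at percentile 44.5, 49.6 and 46.8 in replicates 1, 2 and 3, and the median distal peak elsewhere at 57.6, 59.0 and 61.6, with no overlap. The difference was -12.4 ± 2.74 (SD, n = 3; exact p = 0.25). With windows rebuilt without replicate 1 it was -22.0, without replicate 2 -17.1 and without replicate 3 -21.1. Peaks between showed a similar gap, 41.3 ± 2.42 against 53.0 ± 1.32 (SD, n = 3; exact p = 0.25). At promoters the gap was smaller, 43.5 ± 2.11 against 46.2 ± 1.94, -2.66 ± 0.863 (SD, n = 3; exact p = 0.25), the ranges of the replicates overlapped, and the difference between these gaps was not tested. Over all positions the medians were 43.8 ± 1.09 and 51.5 ± 0.333 (SD, n = 3). Among the 500 strongest pooled peaks were 33 of the 508 distal members (6.50%) and 32 of the 2097 other distal peaks (1.53%), while for promoter peaks the shares were 8.05% and 7.57%. The thresholded list is in effect the strongest pooled peaks of the same replicates, with the weakest member at pooled rank 8718. The windows were thus chosen from summits already cut by rank, so these rank differences are not independent of the rule.

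**Figure D3:**
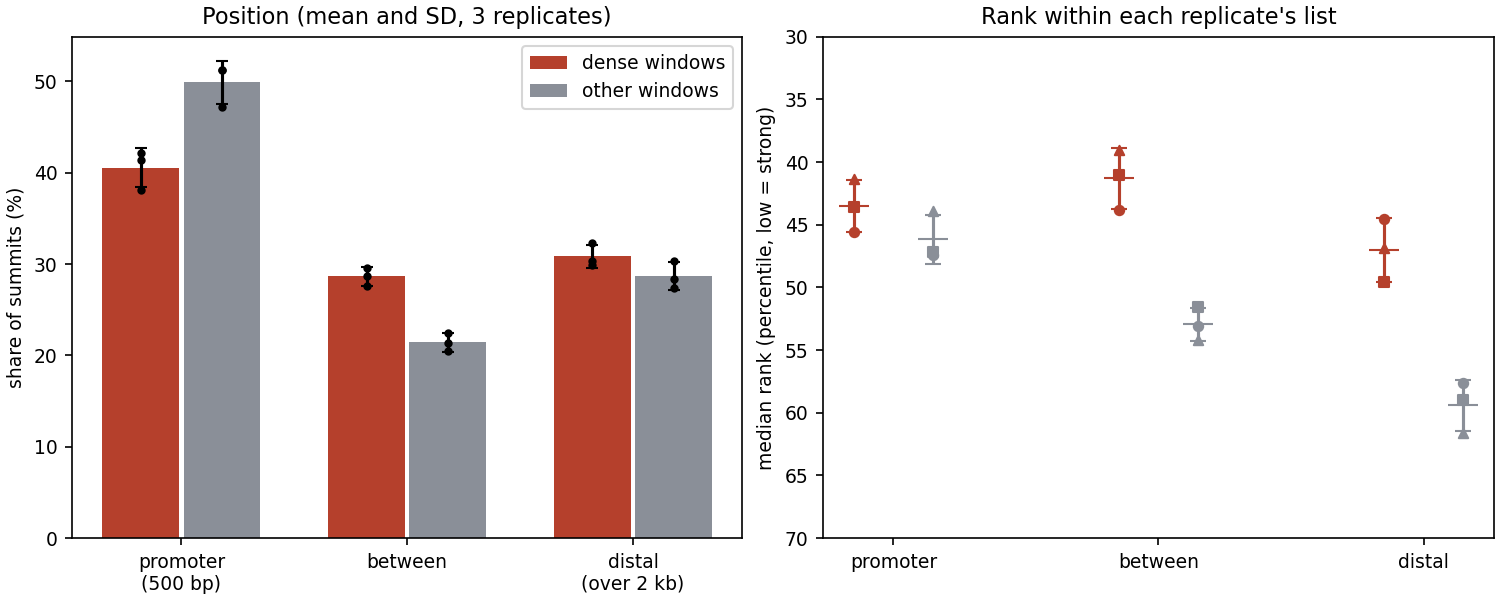
Left, shares of summits (%) at promoters, between and distal, for the strongest peaks of each replicate inside (red) and outside (grey) dense windows, as means with SD and a point per replicate. Right, the median rank as a percentile (low is strong, axis inverted) for the same classes, with means, SD and a symbol per replicate. Red bars are lower than grey at promoters, and red ranks are stronger on average in each class, with overlap at promoters.

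The dense windows fell into kinds. A window was called promoter-led when at least 50% of its summits were promoter peaks, otherwise distal-led when at least 50% were distal, and otherwise mixed. There were 57 promoter-led windows with 622 peaks, 47 mixed with 561 and 38 distal-led with 441. Promoter-led windows had a median of 14 protein-coding gene starts, mixed 7 and distal-led 3.5. The genes of distal-led windows were longer: 30 of 140 (21.4%) spanned over 20 kb, against 22 of 738 (2.98%) in promoter-led windows and 7.26% of all protein-coding genes. Over all dense windows the share was 6.85%. The kinds were set by distance to start sites, so their gene starts and gene lengths are not independent of that definition. In signal the kinds stood close, with median pooled ranks of 3872, 3959 and 3856.

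The windows with most promoter peaks were at chr3R:12400001-12450000, where 11 of 12 summits were promoter peaks among 21 gene starts that include Desat1, a fatty acid desaturase, and Prosalpha2, a proteasome subunit, and at chr3R:9550001-9600000, also with 11 of 12. The replicates held 12, 11 and 10 in the first and 11, 13 and 11 in the second. A further 7 windows had 10 promoter peaks each. Among them was the window on 2R where bgcn and the BMP ligand gene gbb start, though gbb itself had no promoter peak. Others were at RpL24 and the dsRNA-binding protein gene loqs on 2L, and at the remodeller kis and the Hedgehog signal transducer smo on 2L.

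Promoter-led and distal-led windows differed in core promoter motifs. TATCGATA, the DREF site, was within 100 bp of 6.32% ± 0.160 of summits in promoter-led and 1.46% ± 0.160 in distal-led windows (SD, n = 3; exact p = 0.25). The M1BP core was at 5.75% ± 0.986 and 0.761% ± 0.320, and the BEAF-32 core at 35.7% ± 0.988 and 20.8% ± 2.59 (SD, n = 3; exact p = 0.25 each). The Shc sequence printed above holds a DREF site and CGATA matches. CAGCTG, an E-box of basic helix-loop-helix factors, was at 9.28% ± 0.338 and 5.34% ± 1.18, and the forkhead site TGTTTAC at 6.64% ± 0.583 and 3.55% ± 0.670 (SD, n = 3; exact p = 0.25 each). GAGAG was more frequent in distal-led windows, 21.2% ± 1.33 against 18.6% ± 1.31 (SD, n = 3; exact p = 0.25). A tracts of 8 were also more frequent there, 17.9% ± 1.18 against 14.4% ± 0.777 (SD, n = 3; exact p = 0.25). The kind of window was itself set by promoter position. Among promoter peaks alone, the DREF site was at 8.98% ± 0.215 of members and 9.10% ± 0.758 of the others, and the M1BP core at 6.93% ± 0.824 and 6.89% ± 0.566 (SD, n = 3).

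**Figure D4:**
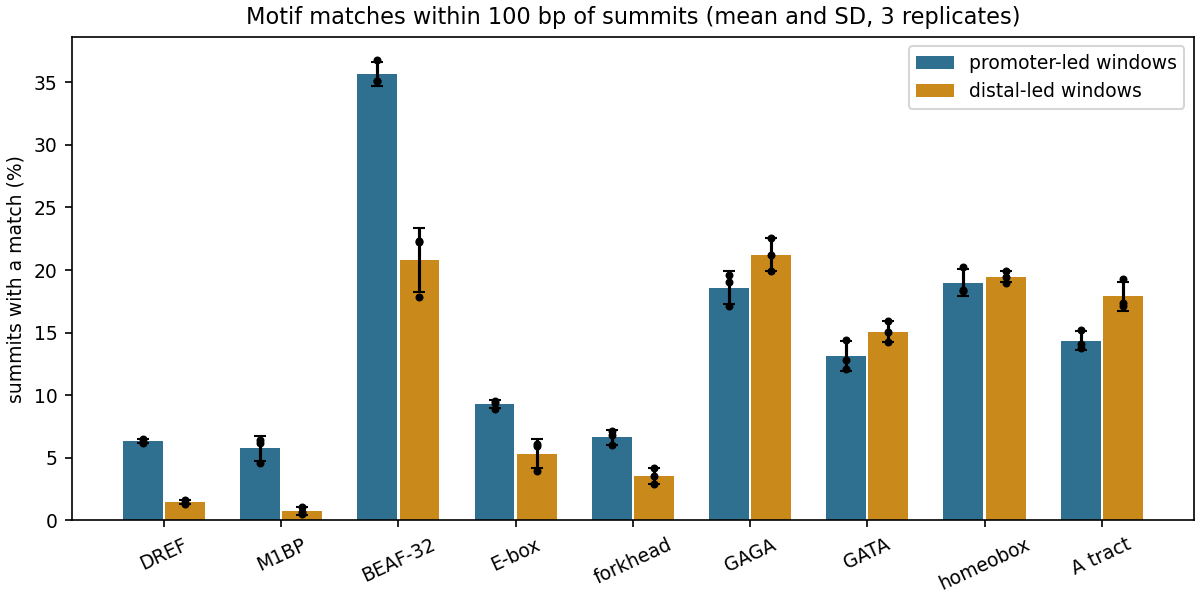
Share of summits (%) with a motif match within 100 bp, for the strongest peaks of each replicate in promoter-led (blue) and distal-led (orange) windows, as means with SD and a point per replicate. The DREF, M1BP, BEAF-32, E-box (CAGCTG) and forkhead bars are higher in promoter-led windows, while GAGA and A tracts are higher in distal-led ones.

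Against all other peaks, members held few motifs at clearly different shares. Of 22 motifs searched on both strands, 5 had a ratio of shares under 0.8 or over 1.25 with all 3 replicates on the same side, a criterion set after the values were seen. The AP-1 site TGACTCA was within 100 bp of 1.05% ± 0.0443 of members and 1.83% ± 0.194 of the others. The Suppressor of Hairless site GTGGGAA was at 1.58% ± 0.220 and 2.19% ± 0.130, and the DREF site at 3.85% ± 0.204 and 4.93% ± 0.546. CAGGTG, bound by Snail and other E-box factors, was more frequent in members, 5.62% ± 0.131 against 4.41% ± 0.0428. The Zelda site CAGGTAG, read by the activator of the early embryonic genome, was at 0.968% ± 0.0692 and 0.715% ± 0.0852 (SD, n = 3 and exact p = 0.25 for each of the 5). Over tiles of the 6 arms these sites were in 1.59%, 2.50%, 0.564%, 7.87% and 1.09%, in the same order. At promoters alone the DREF shares were 8.98% and 9.10%, with the replicates on both sides. They were 0.225% and 0.742% between and 0.476% and 0.764% for distal peaks, with members lower in all 3 replicates. The Zelda site is rare, and in the thresholded list its shares were closer, 0.862% of members and 0.733% of the others. By class in the replicates they were 0.890% and 0.850% for distal peaks, 0.720% and 0.616% at promoters, and 1.40% and 0.769% between. In each class the replicates lay on both sides. The ratios of the other 17 motifs ran from 0.840 for M1BP to 1.36 for the grainyhead site, where the replicates lay on both sides. GC content within 100 bp was 34.2% ± 0.426 at members and 34.8% ± 0.728 elsewhere (SD, n = 3; exact p = 0.25).

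In the dense windows 1212 of 13945 protein-coding genes (8.69%) had a start site, and the gene lists are read beside that share. Over all lists together 83 of 862 genes (9.63%) had one there. A summit within 500 bp of a start site was found at 736 of these 1212 genes (60.7%) and at 35.4% of all protein-coding genes, but the same summits chose the windows, so nothing is read from this difference. A list's genes often share a window, so they are not separate observations. A gene was placed by its start sites, so it could lie in a dense window without a promoter peak. Examples named below are gbb, Dad, brk, Ets21C, hb, Awh, Lim3 and ftz-f1.

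Chromatin regulators and signalling genes stood above 8.69%. Of 23 Polycomb and Trithorax group genes 8 (34.8%) started in 6 dense windows: ph-p and ph-d together, Trl, Psc with its neighbour Su(z)2, trx, phol and kis. Of all 23 genes of this list 17 (73.9%) had a promoter peak, and the same summits chose the windows. The Psc and Su(z)2 window held 10 summits, with 8, 12 and 10 in the replicates. BMP pathway genes followed with 5 of 15 (33.3%) in 5 windows. They cover the ligand gbb, the receptor tkv, the inhibitory Smad Dad and the nuclear repressors brk and shn. The tkv window held 10 thresholded summits but only 9, 5 and 7 of the strongest peaks of the replicates, so none reached 10. EGFR pathway and ETS factor genes had 4 of 17 (23.5%), namely aop, pnt, edl and Ets21C. aop and pnt, a repressor and an activator that bind the same sites, lay in windows of 17 and 13 summits.

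The E(spl) complex, the cluster of Notch target genes on 3R, had 11 of 13 genes (84.6%) in 1 dense window of 10 summits (replicates 13, 10 and 10). The 11 are a single observation. They include gro, a corepressor that works with many repressors, and E(spl)m3-HLH, E(spl)m7-HLH, Kaz-m1 and gro had a promoter peak. Of 16 Notch pathway genes 3 (18.8%) were in dense windows: mib1 and neur, both ubiquitin ligases for Notch ligands, and mam, a Notch coactivator. Gap and pair-rule genes had 3 of 15, slp1 and slp2 in 1 window and hb in another. Wnt and Hedgehog genes had 3 of 21 (14.3%), rdx, smo and arr.

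Ribosomal protein genes had 14 of 92 (15.2%) in 12 windows, such as RpL3 and RpS25 in a promoter-led window of 12 summits (replicates 10, 12 and 12) and RpS12 and RpS4 in another of 12 (14, 11 and 11). Of the 14 genes 13 had a promoter peak, but so did 79 of all 92 ribosomal protein genes (85.9%), and the same summits chose the windows. Mitochondrial ribosomal protein genes had 7 of 73 (9.59%) and homeobox genes outside the Hox clusters 5 of 46 (10.9%), namely oc, Awh, Lim3, cad and hth, all in windows of 10 summits.

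At 10 or more summits per window the other lists lay under the share of all genes. Cell cycle and replication genes had 2 of 27 (7.41%), Mcm6 and twe, and axon guidance and adhesion genes 2 of 28 (7.14%), fra and Ten-a. Proneural factors had 1 of 17 (5.88%), emc, ecdysone response genes 1 of 18 (5.56%), ftz-f1, and neural temporal and zinc finger genes 1 of 21 (4.76%), brat. Cuticle, Tweedle and Osiris genes had 6 of 120, and chemosensory receptor genes 7 of 179 (3.91%), 4 of them the Gr93a to Gr93d cluster in 1 window. None of the 11 Hox genes and none of 111 histone genes started in a dense window. Copies of histone genes are hard to tell apart by short reads, and whether this bears on their count was not tested. At 8 or more summits per window, where 18.6% of all genes are included, 1 Hox gene was, and ecdysone response genes (27.8%) and cell cycle and replication genes (25.9%) lay above that share. At 12 or more, where 3.20% of all genes are included, lists under the share at 10 rose above it through 1 gene each. These were the proneural (5.88%), ecdysone response (5.56%) and axon guidance and adhesion lists (3.57%). Of the lists above the share at 10 or more, homeobox genes outside the Hox clusters fell below it at 8 or more (13.0%). Notch pathway genes were then close to it (18.8% against 18.6%). At 12 or more the E(spl) and homeobox lists had 0 genes. The remaining lists that stood above the share at 10 or more did so at both other limits. These counts were not tested.

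**Figure D5:**
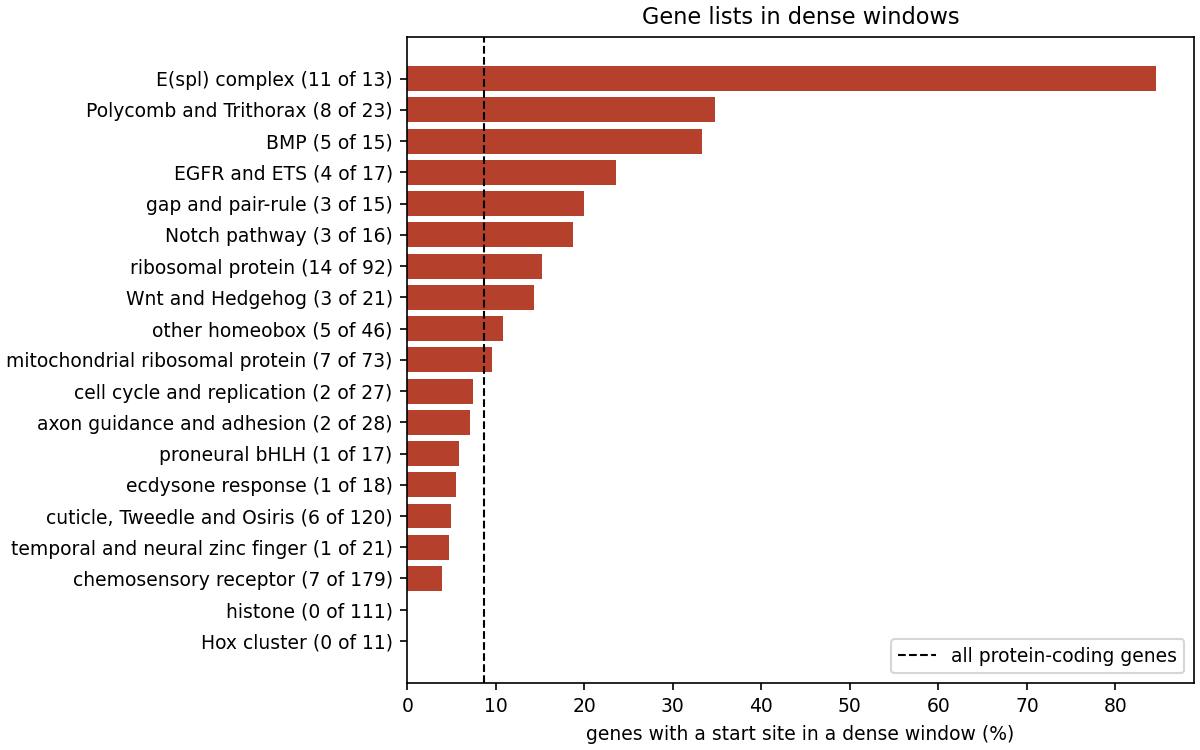
Share of genes (%) with a start site in a dense window for the 19 gene lists, with counts in the labels, and the share of all protein-coding genes as a dashed line. The E(spl) complex, Polycomb and Trithorax group and BMP lists lie farthest to the right, and the histone and Hox lists are at 0.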

How the data were processed

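Only peak lists were used: 1 per replicate, 1 pooled and 1 thresholded on reproducibility (IDR), each made by the authors on dm6 with the same control, per the deposited file listings. For the peak caller, IDR threshold and aligner, names and settings were not given in the sources used here. Signal per peak, as deposited by the authors, has no stated unit, so it served for ranking inside each list and nothing else. Each replicate was reduced to its 8721 strongest peaks, the length of the thresholded list. Summits were taken as deposited, 1-based, so 55 members shared their interval with another summit.

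Genes came from Ensembl release 115 (transposable elements left out) and sequence from RefSeq Release 6. Overlaps, shares and exact two-sided sign-flip permutation tests over the 3 replicates were computed in Python 3.11.15 with numpy 2.4.6, pandas 2.3.3 and scipy 1.17.1; the window rule was tested on simulated data. The labels number the samples as biological replicates. A gene was placed by its start sites, and its list counts were not tested.

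Members, gene lists, motifs and tests were chosen with earlier results of these data known. The 15 fullest windows, the 3 longest runs, the 12 strongest members, the 5 windows with most promoter peaks and up to 4 genes of each list were named, with sequences from windows outside 2R; 1 of the fullest windows is not reported here. More genes of a list were named where the whole count is given. Of the sequences allowed, 3 per kind of window were taken, and ties between windows were broken by their strongest pooled rank. The symbols of Delta and Kaz-m1 were corrected after a first count had missed them. The ranks of distal peaks alone, the motif shares by kind of window, the grouping by gene number and the DREF and M1BP examples, the motif ratio limits and the merging of close summits were chosen after seeing the data. Alternatives were other windows, thresholds, lists, distances and each replicate left out.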

Additional observations from a re-analysis of the deposited data

How the results depend on the processing

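How many windows count as dense depends on the rule. There were 515 windows with 3155 peaks at 5 or more per 25 kb, 19 with 411 at 20 or more per 100 kb, 304 with 2976 at 8 or more, 57 with 747 at 12 or more, and 251 windows with 5 or more of the strongest 50% of the list. With summits under 500 bp apart counted once, an alternative added after seeing the data, 94 of the 142 windows remained, with 1048 peaks, and with 1 summit per interval 133 did. Keeping only peaks found in both other replicates when 1 replicate was left out gave 37 to 46 windows with 400 to 508 peaks. The lower promoter share and the stronger ranks of members kept their direction in the alternatives run, from -16.9 to -2.99 percentage points and from -12.2 to -1.32 percentiles. The rank is not counted for the strongest 50%, where a stricter cut by rank chose the windows (-17.0). For distal peaks alone it ran from -18.0 to -8.11, and from -22.0 to -17.1 with a replicate left out. The strongest pooled peaks gave the same values as the thresholded list throughout, so that alternative tested nothing. The distal share turned with 25-kb windows (-1.03), the strongest 50% (-1.47) and over 5 kb (-2.96), and GC with 100-kb windows (0.525). The share found in all replicates was 53.6% within 50 bp, 76.0% within 200 bp, 74.2% for the strongest 50%, 73.6% with summits under 500 bp apart counted once, and 73.6% to 77.6% with a replicate left out. Listed genes in dense windows numbered 152 at 8 or more (17.6%, against 18.6% of all protein-coding genes) and 28 at 12 or more (3.25% against 3.20%). Of the 22 motifs 17 changed sign in at least 1 of 14 alternatives. Of 10 followed one by one, M1BP turned with 100-kb windows (0.0411), 8 or more (0.0513) and the strongest 50% (0.111), TEAD with shifted windows (-0.291), 25 kb (-0.873), 8 or more (-0.491) and the strongest 50% (-0.203), GAGA with 100 kb (0.406) and 200 bp on each side (0.681), the homeodomain core with 100 kb (-1.75) and from -1.27 to 1.54 with a replicate left out, and Zelda with the strongest 50% (-6.26e-05). DRE, BEAF-32, AP-1, Suppressor of Hairless and CAGGTG kept their sign. The causes were not tested. No paired analysis between groups of samples was possible because there is only 1 group, but members and other peaks were compared within each replicate.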

Other observations

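Dense windows were also rich in peaks below the reproducibility threshold, which the rule did not use. The pooled list had 21279 further peaks, and dense windows held a median of 13 of them (0 to 44), against 8 in other windows with at least 1 thresholded summit. In distal-led windows the median was 16.5, in mixed 14 and in promoter-led 12. The tara window held 31 such peaks and the window near CG7560 held 32, beside 20 and 17 thresholded ones. These peaks come from the same reads as the thresholded ones, and their density was not tested.

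Neighbouring members stood a median of 2348.5 bp apart within a window and 1482 gaps were measured. In mixed windows the median gap was 1939.5 bp, in distal-led 2360 bp and in promoter-led 2618 bp. Gaps under 500 bp made up 12.9% in promoter-led and 8.93% in distal-led windows. An interval with more than 1 summit was deposited for 3.39% of members and 1.35% of the other peaks. The rule counted every summit of such an interval, so this difference is not independent of the rule.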
